A study of Rattus norvegicus with 4 samples.

Results

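Chemokines are small secreted proteins that direct the migration of leukocytes, and their receptors are G protein-coupled receptors on the responding cells. Their family names follow the spacing of the first conserved cysteines, so CC, CXC, CX3C and XC ligands are read by receptors of the same prefix, while atypical receptors bind chemokines without G protein signalling and clear them. Alveolar macrophages, which patrol the air spaces of the lung, are known as a source of monocyte- and neutrophil-attracting chemokines. The genes described here were chosen by name, from array probes whose RefSeq accession maps to a rat gene symbol beginning with Ccl, Cxcl, Cx3cl, Xcl, Ccr, Cxcr, Cx3cr, Xcr or Ackr and a digit, plus Pf4 and Ppbp. Described here are 54 genes with 64 probes, of 16581 named genes with 21109 probes. They are 35 ligands and 19 receptors. A further 4 genes, Cxcl3, Ccr8, Ackr1 and Ackr4, had no named probe and were not analysed here.

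The RNA came from NR8383, an established line of rat alveolar macrophages that was started from a normal rat's lung lavage and grows as a mixture of attached and floating cells in serum-containing medium. All 4 samples belong to 1 group, cells in water as the control condition for 4 h also tagged ALI (an abbreviation left unexplained in the labels), after 20 passages and 48 h of seeding. The design text calls the 4 samples biological replicates, and the labels do not say whether they were separate cultures, so the spread given here is that between these samples. With 1 group there is no comparison between conditions, and each result below is a level, a detection call or a spread over the 4 arrays.

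Each sample was hybridised to a one-colour rat array, with 49.2% to 50.3% of gene spots well above background. All 10 macrophage markers examined were detected, among them Cd68, Csf1r and Spi1, against 51.0% of all named genes. Of 37 markers of T cells, neutrophils, epithelium, fibroblasts and endothelium, 8 were detected (Cd4, Lck, Camp, Lcn2, Dcn, Pecam1, Cdh5 and Vwf) and Cd3d was above background on 2 arrays, while 0 of 8 epithelial markers were. The RNA came from a cell line, so a detected marker here does not show that cells of another type were present. Bulk RNA also cannot tell fewer cells expressing a gene from less RNA per cell. Pairs of arrays correlated across the 8455 detected genes with Pearson's r between 0.990 and 0.996; genes are not independent replicates. Array 3 was the brightest, with a 75th percentile of 1237 against 831 to 932 on the others. Levels below are log2 signals minus this percentile, as mean ± SD (n = 4 arrays), and signals are Feature Extraction's processed intensities. Probes differ in affinity, so a value follows 1 probe across arrays and does not rank genes.

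Of the 16 ligands detected below, the promoters of 5 are printed here with that of Cxcl6, a ligand that was not detected, because all 6 hold a kappaB motif and they show it on both sides of the detection call. They were chosen after their values were seen. The kappaB motif is the DNA element bound by NF-kB, a transcription factor of inflammatory genes. Each sequence is the 250 bases before the gene's start, 5′ to 3′ on the gene's strand, from RefSeq on the build GRCr8. Capitals mark matches on either strand to the motif searched, GGG followed by any 3 bases and then TTCC, and overlapping matches run together. The positions are Cxcl1 chr14:17479322-17479571 (minus strand), Cxcl2 chr14:17467256-17467505 (minus strand), Cxcl6 chr14:17596418-17596667 (minus strand), Ccl6 chr10:68883367-68883616 (minus strand), Ccl7 chr10:67513845-67514094 (plus strand) and Cxcl10 chr14:15988816-15989065 (plus strand).
Cxcl1: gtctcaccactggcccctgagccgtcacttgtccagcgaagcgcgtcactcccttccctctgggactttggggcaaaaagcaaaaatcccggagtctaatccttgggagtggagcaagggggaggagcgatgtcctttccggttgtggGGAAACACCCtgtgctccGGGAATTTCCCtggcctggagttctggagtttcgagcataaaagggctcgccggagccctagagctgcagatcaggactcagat
Cxcl2: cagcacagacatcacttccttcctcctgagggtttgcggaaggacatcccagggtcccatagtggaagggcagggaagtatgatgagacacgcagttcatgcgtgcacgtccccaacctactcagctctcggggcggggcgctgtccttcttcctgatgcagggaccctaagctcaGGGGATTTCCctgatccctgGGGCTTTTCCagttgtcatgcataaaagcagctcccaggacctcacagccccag
Cxcl6: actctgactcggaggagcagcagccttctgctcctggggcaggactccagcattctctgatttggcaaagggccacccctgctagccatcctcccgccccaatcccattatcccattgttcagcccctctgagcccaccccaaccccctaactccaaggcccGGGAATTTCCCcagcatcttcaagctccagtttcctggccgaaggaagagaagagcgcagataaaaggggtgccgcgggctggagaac
Ccl6: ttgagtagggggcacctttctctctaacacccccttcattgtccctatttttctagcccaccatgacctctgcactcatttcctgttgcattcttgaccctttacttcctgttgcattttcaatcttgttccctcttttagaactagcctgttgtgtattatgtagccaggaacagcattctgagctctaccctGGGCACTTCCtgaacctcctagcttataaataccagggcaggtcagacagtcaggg
Ccl7: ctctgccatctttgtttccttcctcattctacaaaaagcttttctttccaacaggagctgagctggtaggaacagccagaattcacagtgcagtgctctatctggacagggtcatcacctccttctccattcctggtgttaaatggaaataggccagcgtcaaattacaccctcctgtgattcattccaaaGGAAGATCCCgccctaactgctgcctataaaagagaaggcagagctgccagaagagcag
Cxcl10: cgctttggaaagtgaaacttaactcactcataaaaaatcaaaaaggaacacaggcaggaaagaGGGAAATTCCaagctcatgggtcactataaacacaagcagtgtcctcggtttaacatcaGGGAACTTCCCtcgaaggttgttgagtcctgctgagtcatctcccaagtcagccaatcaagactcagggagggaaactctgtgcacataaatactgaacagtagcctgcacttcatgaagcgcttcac

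Promoters were found for 43 of the 54 genes. Of these, 10 (23.3%) held the kappaB motif within the 250 bases, against 4.53% of all 33469 promoters of that length. The 33469 promoters outnumber the 16581 named array genes, so the sets are not alike, and the difference was not tested. Neighbouring genes are among the 10, such as Cxcl1 with Cxcl2 and Cxcl10 with Cxcl11, so the 10 are not independent. The 10 were 6 of the 14 detected genes with a promoter (Ccl6, Ccl7, Ccl9, Cxcl1, Cxcl2 and Cxcl10), 1 of 6 partly detected (Cxcl11) and 3 of 23 not detected (Ccl20, Ccr3 and Cxcl6). The promoters of Cxcl1, which was detected, and Cxcl6, which was not, both carry the letters GGGAATTTCC, beginning 84 and 88 bases before the start. Whether the motif goes with detection was not tested. That of Cxcl2 holds a pair of matches, beginning 74 and 54 bases before the start. The letters TATAAA, those of the TATA box, were somewhere in the 250 bases of 13 of the 43 promoters (30.2%), against 12.9% of all. Their place was not required to be that of a TATA box, and the match of Cxcl10 begins 162 bases before the start. The AP-1 motif TGANTCA was in 7 (16.3%) against 6.34%. The element of interferon-induced genes, written as GAAA, any 2 bases and GAAA, was in 2 (4.65%), Cxcl10 and Ccl19, against 3.41%. All motifs were searched on both strands, and a match is a string of letters, not a site shown to be bound.

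Detection required 1 or more probes of a gene to lie well above background on 4 of 4 arrays. By this rule 21 of the 54 genes (38.9%) were detected, 6 were above background on some arrays and 27 on none, against 51.0% of all named genes detected. Among ligands 16 of 35 were detected (45.7%), and among receptors 5 of 19 (26.3%). The detected ligands were 10 of 20 CC genes and 6 of 13 CXC genes. The detected receptors were 2 of the 9 CC receptors described here, 2 of 6 CXC receptors and Cx3cr1. Neither atypical receptor with a probe, Ackr2 or Ackr3, was detected. When all probes of a gene had to be detected, 18 genes remained detected and Ccl27, Ccr9 and Cxcr5 did not.

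**Figure D1:**
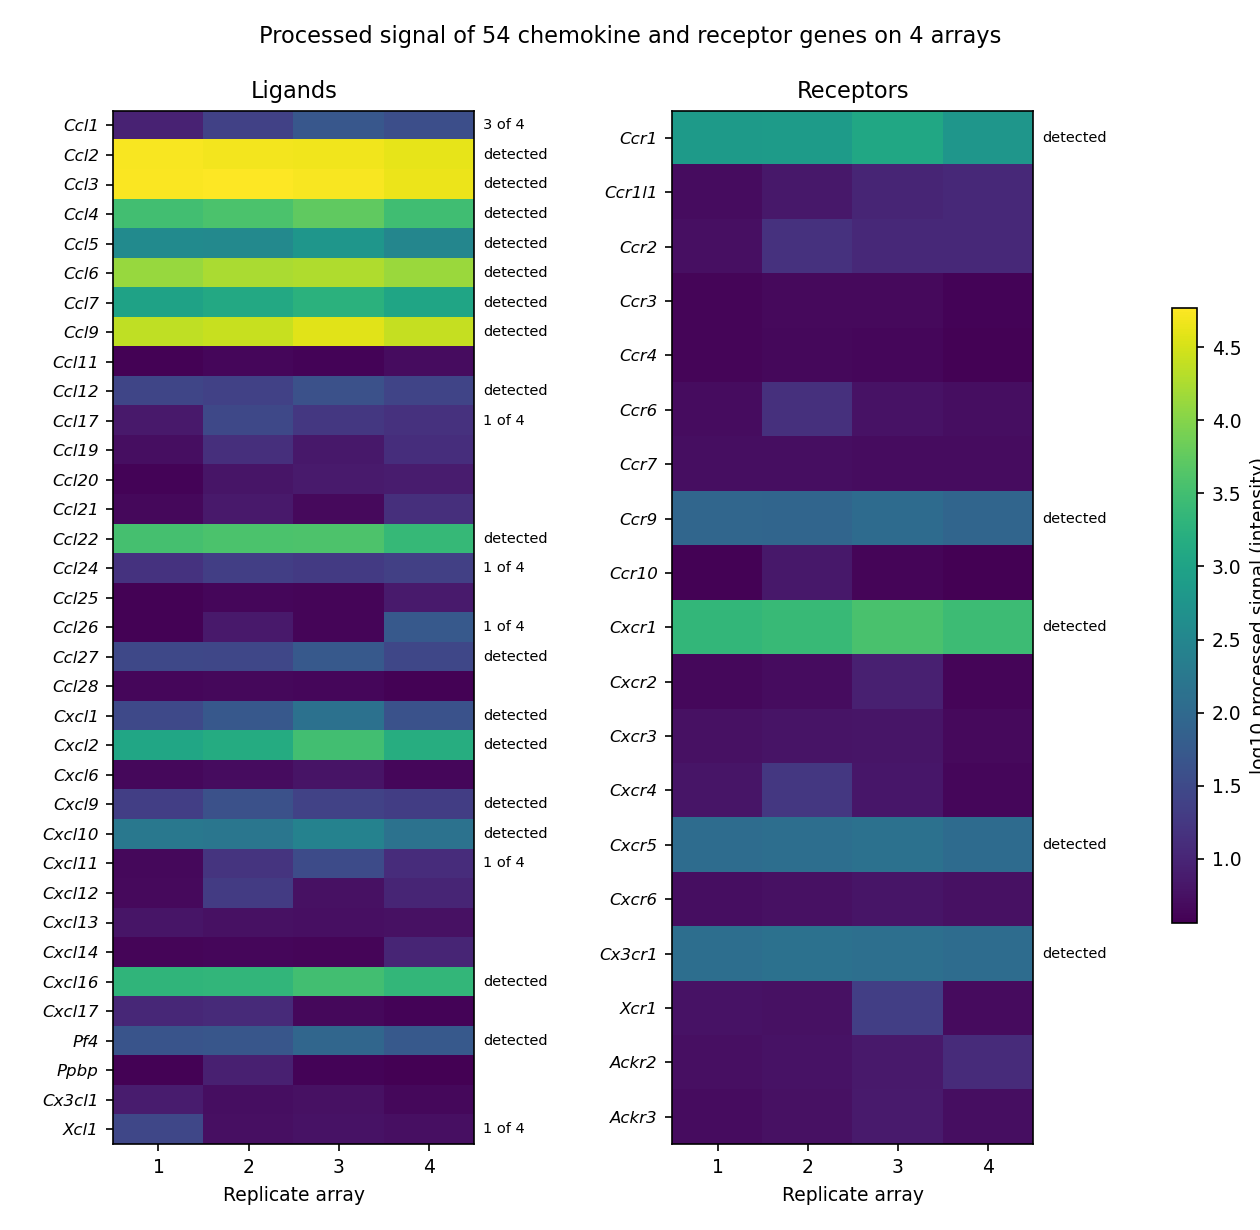
Processed signal of each of the 54 genes (rows, ligands on the left, receptors on the right) on the 4 replicate arrays (columns), as log10 intensity on a shared colour scale; text beside a row gives the detection call, and a row without text was not well above background on any array. The 27 genes without a call sit between 3.66 and 22.3, while Ccl2, Ccl3, Ccl6 and Ccl9 are at 13270 or more on every array.

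The 3 ligands that draw monocytes through Ccr2 were all detected. Ccl2, the main monocyte attractant, had signals of 53562, 50783, 48342 and 42053 on replicates 1 to 4, a level of 5.66 ± 0.27. Replicate 3 was the lowest of the 4 after scaling, and the arrays lay within 1.56-fold. Ccl7, a relative of Ccl2 that also binds Ccr1, had signals of 956, 1273, 1760 and 1074 (0.36 ± 0.17), and was lowest on replicate 1. Ccl12, a further monocyte attractant, was near the detection limit with signals of 27.7, 24.2, 39.9 and 26.5 (-5.04 ± 0.15). The lowest signal that counted as well above background was 18.1 to 21.5, depending on the array. Their receptor Ccr2 was not well above background on any array.

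Another 5 CC ligands of monocytes and T cells, Ccl3, Ccl4, Ccl5, Ccl6 and Ccl9, were detected as well. Ccl3, which attracts monocytes and T cells, had signals of 54949, 59182, 54434 and 44534 (5.79 ± 0.25), with replicate 3 lowest after scaling. Ccl4, its close relative, had signals of 3156, 3790, 5636 and 2995 (1.98 ± 0.16), with replicate 3 highest. Ccl5, a T cell attractant, had signals of 382, 357, 606 and 312 (-1.26 ± 0.18). Ccl6 and Ccl9, CC chemokines that rodents make in myeloid cells, had levels of 4.02 ± 0.14 and 4.87 ± 0.10. Ccl6 signals were 13270, 17026, 18442 and 14011, and those of Ccl9 were 23813, 26405, 38583 and 25459. The 4 arrays of Ccl9 lay within 1.15-fold after scaling, with an SD close to the lowest of the detected genes, 0.094 for Cxcl16.

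Of the remaining CC ligands, Ccl22 and Ccl27 were detected. Ccl22, a macrophage product that attracts T cells through Ccr4, had 3 probes, all detected, and the brightest gave signals of 3401, 3864, 3952 and 2406 (1.80 ± 0.24). The other 2 probes lay lower, with means of -1.88 and -1.92. Ccl27, a skin chemokine and ligand of Ccr10, was dim, with signals of 29.5, 28.8, 55.7 and 28.7 (-4.81 ± 0.24). Its second probe was above background on 3 arrays. Ccl11, the eosinophil attractant eotaxin, was not detected, nor were Ccl19 and Ccl21 (both ligands of Ccr7), Ccl20, Ccl25 and Ccl28.

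Among the neutrophil attractants, which act through Cxcr2, Cxcl1 and Cxcl2 were detected, and Cxcl6 and Ppbp were not. Cxcl2 had signals of 1149, 1426, 3185 and 1530 on replicates 1 to 4 (0.81 ± 0.42). Replicate 3 was the highest and replicate 1 the lowest, 1.97-fold apart after scaling. Cxcl1 had signals of 30.7, 53.8, 139 and 41.9 (-4.11 ± 0.70), again highest on replicate 3 and lowest on replicate 1, 3.20-fold apart after scaling. The probe of Cxcl1 has 10 spots on each array: on replicate 3 they lay between 126 and 171, and the highest spot on any other array was 73.9. Without replicate 3 the SD between arrays was 0.37 for Cxcl1 and 0.25 for Cxcl2, against 0.70 and 0.42 with it.

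Cxcl9 and Cxcl10, which interferon induces and which attract T cells through Cxcr3, were both detected. Cxcl10 had signals of 181, 164, 268 and 141 (-2.39 ± 0.17). Cxcl9 had signals of 21.9, 39.8, 24.9 and 21.5 (-5.20 ± 0.46), near the detection limit, and stood higher on replicate 2. Cxcl11, the third ligand of this kind, was above background on replicate 3 alone. Cxcl16, a membrane-bound chemokine that also binds oxidised lipoprotein, had signals of 2092, 2144, 3128 and 2215 (1.30 ± 0.09), the smallest SD among the 21 detected genes. Pf4, the platelet factor, had signals of 44.9, 49.2, 88.2 and 53.9 (-4.07 ± 0.23). None of the homeostatic CXC ligands Cxcl12, Cxcl13, Cxcl14 and Cxcl17 was detected, and neither was the membrane-bound Cx3cl1.

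**Figure D2:**
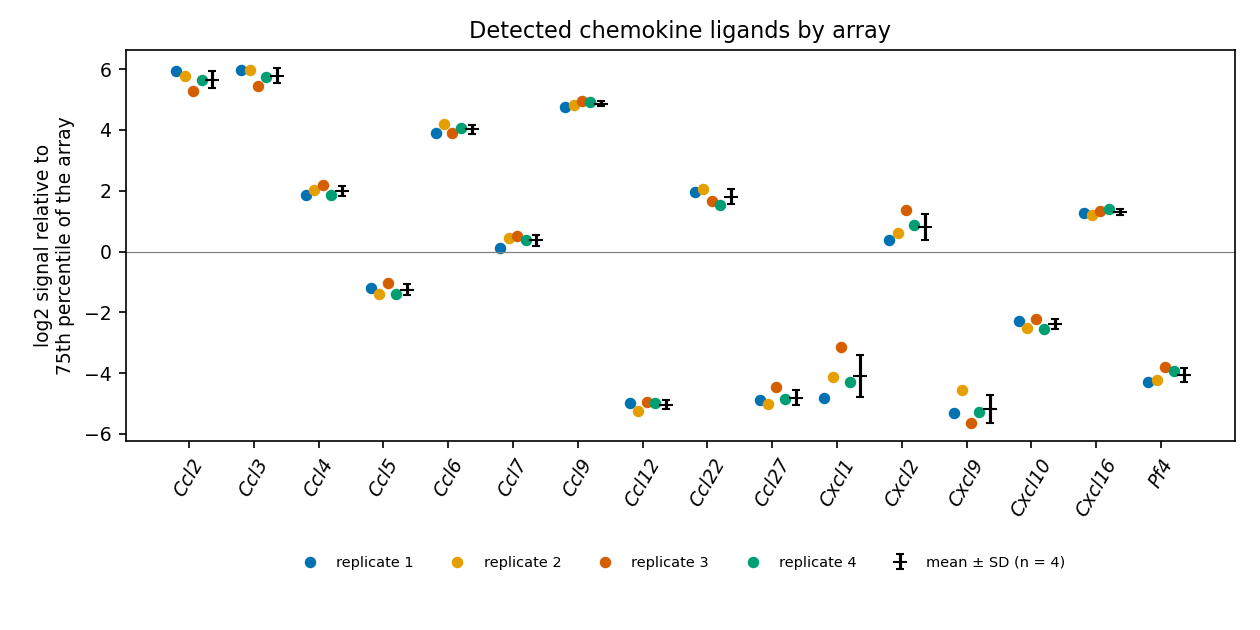
Log2 level (y axis, 0 at the array's 75th percentile) of the 16 detected ligands (x axis, CC genes first) on each replicate array (coloured points), with mean ± SD of the 4 arrays (black). The points of Cxcl1 span 1.68 and those of Cxcl16 span 0.21; heights of different genes are not comparable.

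Partly detected ligands were Ccl1, Ccl17, Ccl24, Ccl26, Cxcl11 and Xcl1. Ccl1, a ligand of Ccr8, had signals of 9.33, 24.2, 51.7 and 37.5 and was above background on 3 arrays. The others were above it on 1 array each. Ccl26, an eosinophil attractant, had 54.6 on replicate 4 and 3.84 to 7.22 on the others. Xcl1, a T and NK cell product, had 29.0 on replicate 1 and 5.39 to 5.78 on the others. Ccl17, which shares Ccr4 with Ccl22, had 30.2 on replicate 2 and 7.21 to 17.8 elsewhere. Cxcl11 had 33.9 on replicate 3 and 4.55 to 15.8 elsewhere, and the eosinophil attractant Ccl24 had 15.2 to 22.9 on the 4 arrays. Their levels were -5.22 ± 0.96 for Ccl1, -5.95 ± 0.82 for Ccl17 and -5.62 ± 0.39 for Ccl24. For Ccl26, Cxcl11 and Xcl1 they were -6.75 ± 1.95, -6.18 ± 1.01 and -6.84 ± 1.29. Each of these genes has 1 named probe with 1 spot per array.

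Of the receptors, Ccr1 and Cxcr1 were detected by their 1 named probe. Ccr1, the receptor of Ccl3, Ccl5, Ccl6 and Ccl9, had signals of 729, 751, 1186 and 590 (-0.28 ± 0.18). Cxcr1, a neutrophil receptor that binds Cxcl6, had signals of 2207, 2513, 3693 and 2845 (1.53 ± 0.19), while its neighbour Cxcr2 was not detected. Cx3cr1, the receptor of fractalkine on monocytes and macrophages, had signals of 119, 136, 128 and 112 (-2.96 ± 0.22). Ccr9 and Cxcr5 were each detected by 1 probe and not by another. Not detected were Ccr2, Ccr3, Ccr4, Ccr6, Ccr7, Ccr10, Ccr1l1, Cxcr2, Cxcr3, Cxcr4, Cxcr6, Xcr1, Ackr2 and Ackr3.

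Ccr9 and Cxcr5, known as homing receptors of lymphocytes, each had 1 probe above background on all arrays and 1 on none. The detected probe of Ccr9 had signals of 90.2, 84.8, 108 and 87.9 (-3.37 ± 0.13), and the other had 4.35 to 4.90. For Cxcr5 the detected probe had 111, 121, 134 and 110 (-3.01 ± 0.13), and the other 4.54 to 6.77. The detected Cxcr5 probe is assigned to a predicted transcript and the other to the curated one. Over all members, 8 genes had more than 1 probe. Probes differed in detection for Ccl27, Ccr9 and Cxcr5. Their means differed by more than 3 on the log2 scale for Ccl22, Ccr9 and Cxcr5, as for 1102 (46.9%) of the 2349 detected genes with several probes, whose median difference was 2.81.

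**Figure D3:**
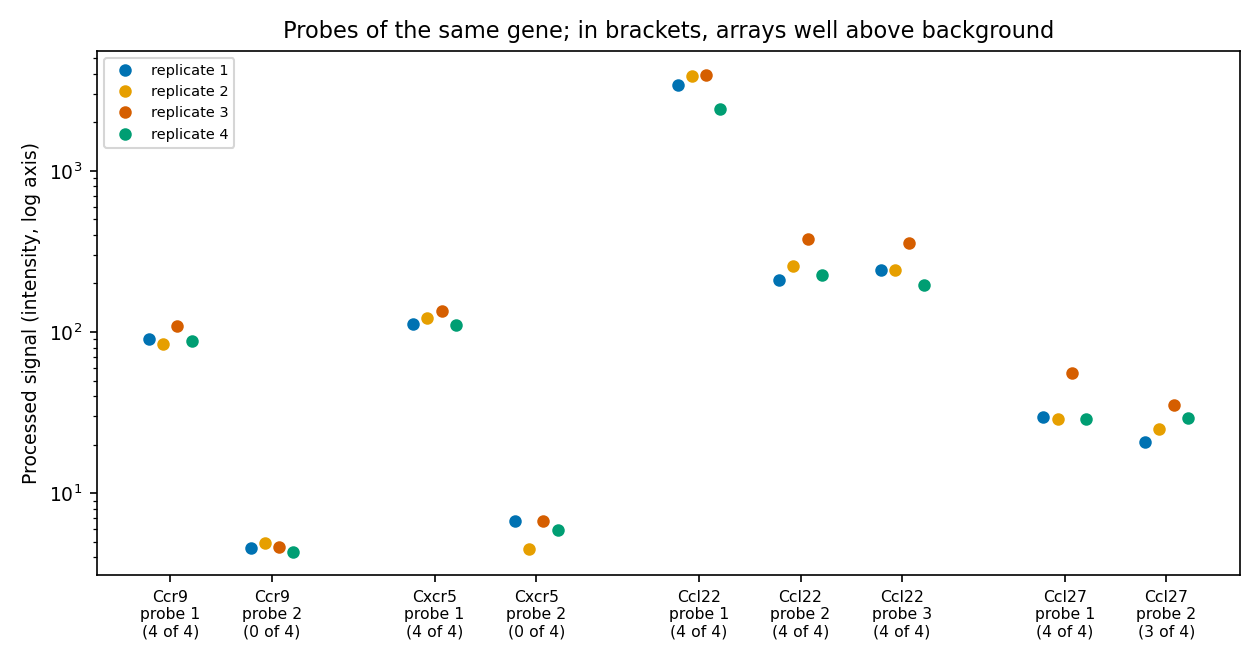
Processed signal (y axis, log scale) of every probe of Ccr9, Cxcr5, Ccl22 and Ccl27 (x axis) on each replicate array (points), with the number of arrays well above background in brackets. The detected Ccr9 probe sits at 84.8 or more on every array and the other at 4.90 or less.

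Set against a list of 39 known ligand-receptor pairs, 34 had named probes on both sides. The list does not hold every known pair, and the detected ligands Ccl4 and Pf4 are in none of its pairs. The counts below depend on which pairs were listed. In 5 pairs both partners were detected, and all 5 used Ccr1, with Ccl3, Ccl5, Ccl6, Ccl7 and Ccl9. In 10 pairs the ligand alone was detected, namely Ccl2, Ccl7 and Ccl12 (Ccr2), Ccl22 (Ccr4), Ccl27 (Ccr10), Cxcl1 and Cxcl2 (Cxcr2), Cxcl9 and Cxcl10 (Cxcr3), and Cxcl16 (Cxcr6). The receptor alone was detected in 4, namely Ccr9, Cxcr1, Cxcr5 and Cx3cr1 without Ccl25, Cxcl6, Cxcl13 and Cx3cl1. Neither partner was detected in 15. With detection required of all probes of a gene, both partners were detected in 5 pairs, the ligand alone in 9 and the receptor alone in 2.

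Many chemokine genes sit side by side in clusters. In the RefSeq order of protein-coding genes, the adjacent genes Ccl5, Ccl9, Ccl6, Ccl3 and Ccl4 were all detected. In the adjacent run of Ccl2, Ccl7, Ccl11, Ccl12 and Ccl1, 3 were detected, Ccl1 was partly detected and Ccl11 was not. The neighbours Cxcl2 and Cxcl1 were both detected, whereas in the run of Cxcl3, Pf4, Ppbp and Cxcl6 only Pf4 was, with no named probe for Cxcl3. Of 6 adjacent receptor genes (Cxcr6, Xcr1, Ccr1, Ccr3, Ccr1l1 and Ccr2), Ccr1 was the 1 detected. In the remaining ligand runs, Cxcl10 and Cxcl9 were detected without Cxcl11, Ccl22 without Ccl17 and Cx3cl1, and Ccl27 without Ccl19. The neighbours Ccl24 and Ccl26 were partly detected. Cxcr1 was detected without Cxcr2, and Cx3cr1 lies next to Ccr8, which had no named probe. Over all 54 genes 38.9% were detected.

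Of 46 other genes of the chemokine pathway, 44 had a named probe and 39 of these (88.6%) were detected, against 51.0% of all named genes. The lists of pathway genes were chosen with earlier results of these data known. Among receptor signalling genes 25 of 29 were detected, including Gnai2, the inhibitory G protein subunit through which these receptors act (6.60 ± 0.17), Rac2, a GTPase of leukocyte movement (2.89 ± 0.06), and the arrestin Arrb2 (0.82 ± 0.18). Gnai1, Gng2 and Rgs18 were not detected, Rgs16 was above background on 1 array, and Dock2 and Elmo1 had no named probe. Of 8 genes of chemokine processing, the peptidase Dpp4 was not detected, while Adam10 (-1.97 ± 0.28) and Adam17 (-0.44 ± 0.14), which shed membrane-bound chemokines, were. All 7 genes of chemokine induction were detected, among them the NF-kB subunits Nfkb1 (-0.08 ± 0.31) and Rela (0.40 ± 0.13) and the NF-kB inhibitor Nfkbia (1.52 ± 0.13). None of the 39 detected pathway genes spanned more than 2-fold between arrays or passed the variance test, against 3.26% and 0.237% of all detected genes, so these counts of 0 are near the background.

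The spread between arrays was then compared with that of other genes. The median SD of the 21 detected chemokine and receptor genes was 0.179, against 0.144 for all 8455 detected genes. The highest and lowest array differed by more than 2-fold for 2 of the 21 (9.52%), Cxcl1 and Cxcl9, against 3.26% of all detected genes. Signals close to background limit the values of both. With normexp on the median signal the count was 0, against 77 of all detected genes. That setting adds an offset of 50 to every value, which narrows the fold range of dim genes. The count of 0 is therefore no measure of their spread. Without replicate 3 this count was 0, without replicate 2 it was 1 (Cxcl1), and the median SD without replicate 3 was 0.135 (0.128 for all genes). A limma test of each gene's variance against the spread fitted for its signal, with Benjamini-Hochberg adjustment over all 8455 genes, called 0 of the 21, against 0.237% of all genes. At an unadjusted p under 0.05 it called 2, Cxcl2 and Cxcl1, against 6.29% of all genes. With limma the adjusted p was 0.345 for Cxcl2, the smallest of the 21, and 0.548 for Cxcl1. Without the trend limma also called 0, against 0.0473% of all genes, with 3 at an unadjusted p under 0.05, against 5.23%.

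**Figure D4:**
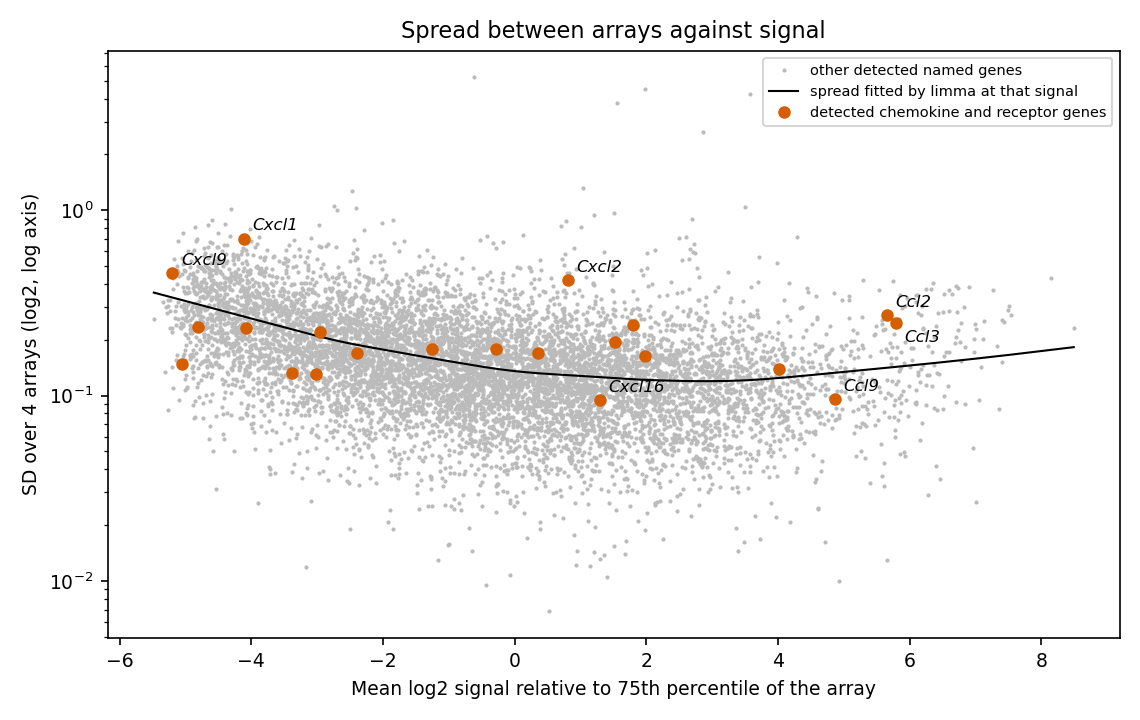
SD over the 4 arrays (y axis, log scale) against mean log2 signal relative to the 75th percentile (x axis) for the 8455 detected named genes (grey), the 21 detected chemokine and receptor genes (orange) and the spread fitted by limma (line). Cxcl1 (SD 0.70) and Cxcl2 (SD 0.42) lie above the line, and Cxcl16 and Ccl9 lie below it.

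Replicate 3 was the highest array for 11 of the 21 genes (52.4%), against 19.6% of all detected genes, and the lowest for 7 (33.3%), against 36.7%. The 11 were Ccl4, Ccl5, Ccl7, Ccl9, Ccl12, Ccl27, Cxcl1, Cxcl2, Cxcl10, Pf4 and Ccr1. The count was 11 under quantile normalisation and with the percentile taken over detected probes, where 27.4% and 25.4% of all genes were highest there. Under normexp it was 7 (33.3%), against 16.0% of all genes. With no scaling it was 17 (81.0%), against 89.7% of all genes. Ccl2 and Ccl3 were lowest on replicate 3, as were 77.7% of the 220 detected genes with a mean level over 5, and with no scaling they were lowest on replicate 4 instead. The part of overall brightness in these array differences was not tested.

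**Figure D5:**
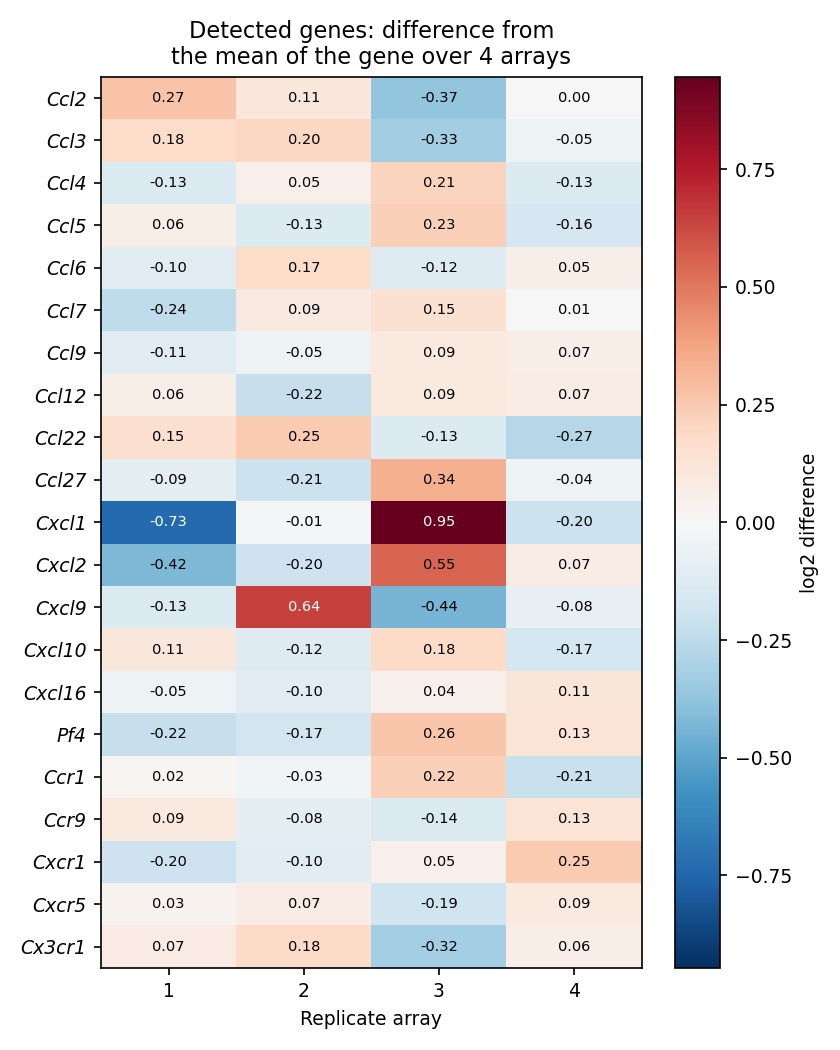
Difference of each array (columns) from the mean of the gene over the 4 arrays, in log2 units, for the 21 detected genes (rows, ligands first), with blue below and red above the mean. Cxcl1 has the largest differences of the 21, and Cxcl1 and Cxcl2 are both below their mean on replicate 1 and above it on replicate 3.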

How the data were processed

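The 4 arrays were scanned and extracted with Agilent Feature Extraction 11.0.1.1, per the submitters' processing notes; per the labels, each received cRNA from 100 ng of RNA with an integrity number above 7.5. Per the file headers, the deposited intensities are linear, 1 per spot, corrected for background within the array and not normalised between arrays, with flags of another kind (0 or 1) for detection and outliers. All 4 lie on 1 slide with 1 scan day. No spot was saturated. The number of arrays limits the precision.

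Control spots and outlier spots (1.11% to 1.45%) were left out, and spots of a probe were averaged as log2 of the processed signal minus the array's 75th percentile over gene spots. A probe with several spots counted as above background when more than 50% of them did. Of 45598 probes, 21109 (46.3%) matched 1 gene without accession versions in the RefSeq table of GRCr8; the other 24489 are unnamed here. The array header names another build (rn4), so no array coordinate was used; the RefSeq tables gave names, gene order, overlaps and, on GRCr8, promoters. A gene took its probe with the highest mean.

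Spread was tested with limma 3.58.1 in R 4.3.3 (intercept only, trended robust eBayes, upper-tail F test of the residual against the fitted variance, threshold 0.05), after a check on simulated data. Other steps used Python 3.11.15. The alternatives were other scalings, normexp on the median signal with an offset of 50, outlier spots kept and the mean over probes. Further ones were no filter, other detection calls, no trend and each array left out. The rule for naming took every member by its detection state, with level and SD for those detected at least in part and signals on every array for those detected, and the pathway genes not detected or over 2-fold; other named genes are examples. A gene that the naming rule also finds is not reported here and enters no count of members. The members and lists were chosen with earlier results of these data known.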

Additional observations from a re-analysis of the deposited data

Results flagged for a closer look

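Among the 27 detected or partly detected genes, each with 4 arrays, 2 had 1 array far from the others relative to the range of the 4; chance gives about 1 in 20. Ccl12, a monocyte attractant, had a level of -5.26 on replicate 2, below the other 3 arrays at -4.99 to -4.95. Xcl1 reached -4.92 on replicate 1, where alone it was well above background; its other 3 levels ran from -7.74 to -7.27.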

How the results depend on the processing

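Across the alternatives for detection, 18 to 28 of the 54 genes were detected, against 46.6% to 60.4% of all named genes, and leaving out each array gave 21 or 22. A looser flag (signal positive and significant) gave 28 by adding Ackr2, Ccl1, Ccl17, Ccl24, Cxcl11, Ccr1l1 and Ccr2. The count of genes over 2-fold was 2 as reported, 3 with no scaling (Ccr1, Cxcl1 and Cxcl2, without Cxcl9), 1 with quantile normalisation, 0 with normexp on the median signal, 22 with no filter on dim probes, and 0 to 2 when 1 replicate was left out. Without the filter all 54 genes enter, those near background included. The offset of 50 under normexp narrows the fold range of dim genes. The causes of the other shifts were not tested. Of all genes 276 were over 2-fold, 3907 with no filter, 833 with no scaling, 77 with normexp, and 129 to 231 with 1 replicate left out. No alternative called any of the 21 in the limma variance test; the smallest adjusted p was 0.083 (Cxcl1, no scaling) and the largest of these minima 0.983 (Ccl22, without replicate 3). Over all genes that test called 20, and 3 to 79 under the alternatives. Against a median SD of 0.179 (0.144 for all genes), the value without scaling was 0.331 (0.267 for all genes). Without the filter it was 0.301 (0.219 for all genes). Cxcl1 and Cxcl2 were highest on replicate 3 and lowest on replicate 1 under every scaling run, with a Cxcl1 span of 0.63 under normexp and 1.68 as reported. Of 27 mean levels, 17 moved by more than their SD under normexp with its offset (Cxcl1 from -4.11 to -2.98). With the percentile over detected probes 23 moved, and with quantile normalisation or no scaling all 27 did. These scalings set another zero point for the levels. With the mean over probes 3 moved: Ccl22 from 1.80 to -0.67, Ccr9 from -3.37 to -5.53 and Cxcr5 from -3.01 to -5.17. Signals close to background limit the values of Ccl12, Ccl27, Cxcl1 and Cxcl9. No paired analysis was possible because there is 1 group.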

Other observations

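In the RefSeq table, Cxcl10 and Cxcl11 overlap Art3, which encodes an ADP-ribosyltransferase-like protein. Art3 had levels of -3.32, -3.19, 7.18 and -3.13 on replicates 1 to 4, far higher on replicate 3, and its SD of 5.20 was the highest of all 8455 detected genes. Cxcl11 was well above background on that array alone, at -5.19, while Cxcl10 was at -2.21 there and at -2.56 to -2.28 on the others. Whether these values are related was not tested. Cxcr5 overlaps Bcl9l (-0.11 ± 0.04), Cxcl16 overlaps Zmynd15 (-4.66 ± 0.16) and Cxcr6, which was not detected, overlaps Fyco1 (0.44 ± 0.14; SD, n = 4 for each). Ccl27 overlaps Il11ra1, which was not detected. These overlaps were looked up after the values of the chemokine genes were seen.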
